A study of Homo sapiens with 2 samples.

Results

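In OVCAR5 cells compared between hashtag pairs with nearly the same level of IRF1, 3 of 12828 genes tested still differed, and all of them, the chemokines CCL5 and CXCL10 and the tryptophan-degrading enzyme IDO1, were higher in the highest-coded pairs. Each of these calls held in 11 of 17 alternative settings, and with single cells matched on IRF1 only CXCL10 of the 3 kept its call. The comparison set the hashtag pairs 1+6, 3+4, 5+6 and 7+8, called highest-coded here, against the pairs 1+4, 2+8, 4+7 and 6+8, called middle-coded, matched in that order into 4 blocks. The names follow only the order of the hashtag numbers within a block. The highest-coded pairs held 1362 cells and the middle-coded pairs 1472 cells, together 2834 of 6114 cells with a readable pair and 8 of 18 pairs observed. The pairs were chosen by their IRF1 level and their place in the hashtag order, so IRF1 is described without a test.

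OVCAR5 is an ovarian carcinoma cell line, and all cells of the pool carried, per the labels, a reporter for sensing interferon-gamma and CFP. The pool mixed 18 conditions: cells given 1, 10 or 100 ng/ml interferon-gamma for 2, 6, 12 or 24 h, frozen cells of the 100 ng/ml condition at 24 h, and cells left unstimulated for each of these times, with a frozen sample at 24 h. No source used here says which hashtag pair marks which condition, so no dose or time is given for any pair. All pairs came from 1 pool in 1 gene expression library and 1 hashtag library. The p-values below concern only the 4 matched blocks of that pool, not separate cultures. Those from edgeR also draw on the spread of other genes, so they do not measure agreement among a gene's own 4 blocks alone.

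Interferon-gamma binds its receptor, activates the kinases JAK1 and JAK2, and through them turns on early genes such as IRF1, whose promoters carry GAS sites. IRF1 is itself a transcription factor that binds the ISRE, and it drives later genes, among them the class II transactivator CIITA, guanylate-binding proteins, IDO1 and the CXCR3 ligands CXCL9, CXCL10 and CXCL11. CXCR3 ligands and CCL5 are chemokines that draw activated T cells, while IDO1 degrades tryptophan and restrains T cells.

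The promoters of the CXCR3 ligands, the gene list with the largest median difference of the 24 pathway lists described, are shown with that of IRF1, the gene held level. The sequences are RefSeq's on GRCh38.p14, each 300 bases ending 50 bases after the start site, with matches in capitals. CXCL9 lies at chr4:76007460-76007759, CXCL10 at chr4:76023448-76023747, CXCL11 at chr4:76036021-76036320 and IRF1 at chr5:132490724-132491023, all on the minus strand.
CXCL9: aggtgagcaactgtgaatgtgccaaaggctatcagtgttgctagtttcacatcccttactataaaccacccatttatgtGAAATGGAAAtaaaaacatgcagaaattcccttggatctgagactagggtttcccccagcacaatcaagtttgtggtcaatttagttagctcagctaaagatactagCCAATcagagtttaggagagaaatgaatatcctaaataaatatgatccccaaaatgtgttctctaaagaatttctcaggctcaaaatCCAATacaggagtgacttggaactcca
CXCL10: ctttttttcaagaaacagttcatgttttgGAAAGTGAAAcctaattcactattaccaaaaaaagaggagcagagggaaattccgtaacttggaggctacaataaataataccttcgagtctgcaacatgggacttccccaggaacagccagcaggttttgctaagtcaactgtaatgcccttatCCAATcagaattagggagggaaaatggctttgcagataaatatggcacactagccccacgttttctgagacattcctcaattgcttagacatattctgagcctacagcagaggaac
CXCL11: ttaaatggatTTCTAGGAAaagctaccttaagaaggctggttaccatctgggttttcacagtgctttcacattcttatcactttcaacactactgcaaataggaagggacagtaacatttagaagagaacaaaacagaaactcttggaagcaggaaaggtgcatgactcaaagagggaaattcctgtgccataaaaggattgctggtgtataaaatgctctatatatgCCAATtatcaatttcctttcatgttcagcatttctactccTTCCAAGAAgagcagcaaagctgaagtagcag
IRF1: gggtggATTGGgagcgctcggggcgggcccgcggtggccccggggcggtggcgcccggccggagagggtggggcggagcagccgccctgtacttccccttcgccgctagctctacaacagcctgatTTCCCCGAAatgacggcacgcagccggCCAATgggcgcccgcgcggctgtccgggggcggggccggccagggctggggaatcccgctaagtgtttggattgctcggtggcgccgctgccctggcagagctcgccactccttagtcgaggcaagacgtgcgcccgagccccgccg
Both strands were searched for the ISRE core GAAANNGAAA, the palindromic GAS core TTCNNNGAA and the CCAAT box, and no 2 matches overlapped. The ISRE core stood in 3.57% of 35116 promoters of the same length, the GAS core in 7.66% and CCAAT in 34.6%. CXCL9 and CXCL10 each held 1 ISRE core, starting 171 and 221 bases before the start site. CXCL11 held 2 GAS cores and IRF1 held 1, the one in IRF1 starting 124 bases before its start site. A match describes the letters in these windows and not a site in use.

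IRF1 was level between the arms. It stood at 1357, 1058, 995 and 1044 CPM (a gene's UMIs scaled to 1000000 gene UMIs per pair) in the highest-coded pairs, against 1349, 1046, 1004 and 1032 CPM in the middle-coded pairs, in block order. The matched ratios lay between 0.991 and 1.01, and the fitted log2 difference was 0.0094. In the lowest-coded responding pair of each block, IRF1 stood at 1322, 1012, 841 and 808 CPM, lower than in the middle-coded pair in all 4 blocks and most so in blocks 3 and 4. In the IRF1-low pair of each block it stood at 57.9, 43.7, 60.4 and 70.8 CPM. Per cell, with every cell thinned to 10000 UMIs, the median was 13, 10, 10 and 10 IRF1 UMIs in the highest-coded pairs and 13, 10, 9 and 10 in the middle-coded pairs.

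**Figure D1:**
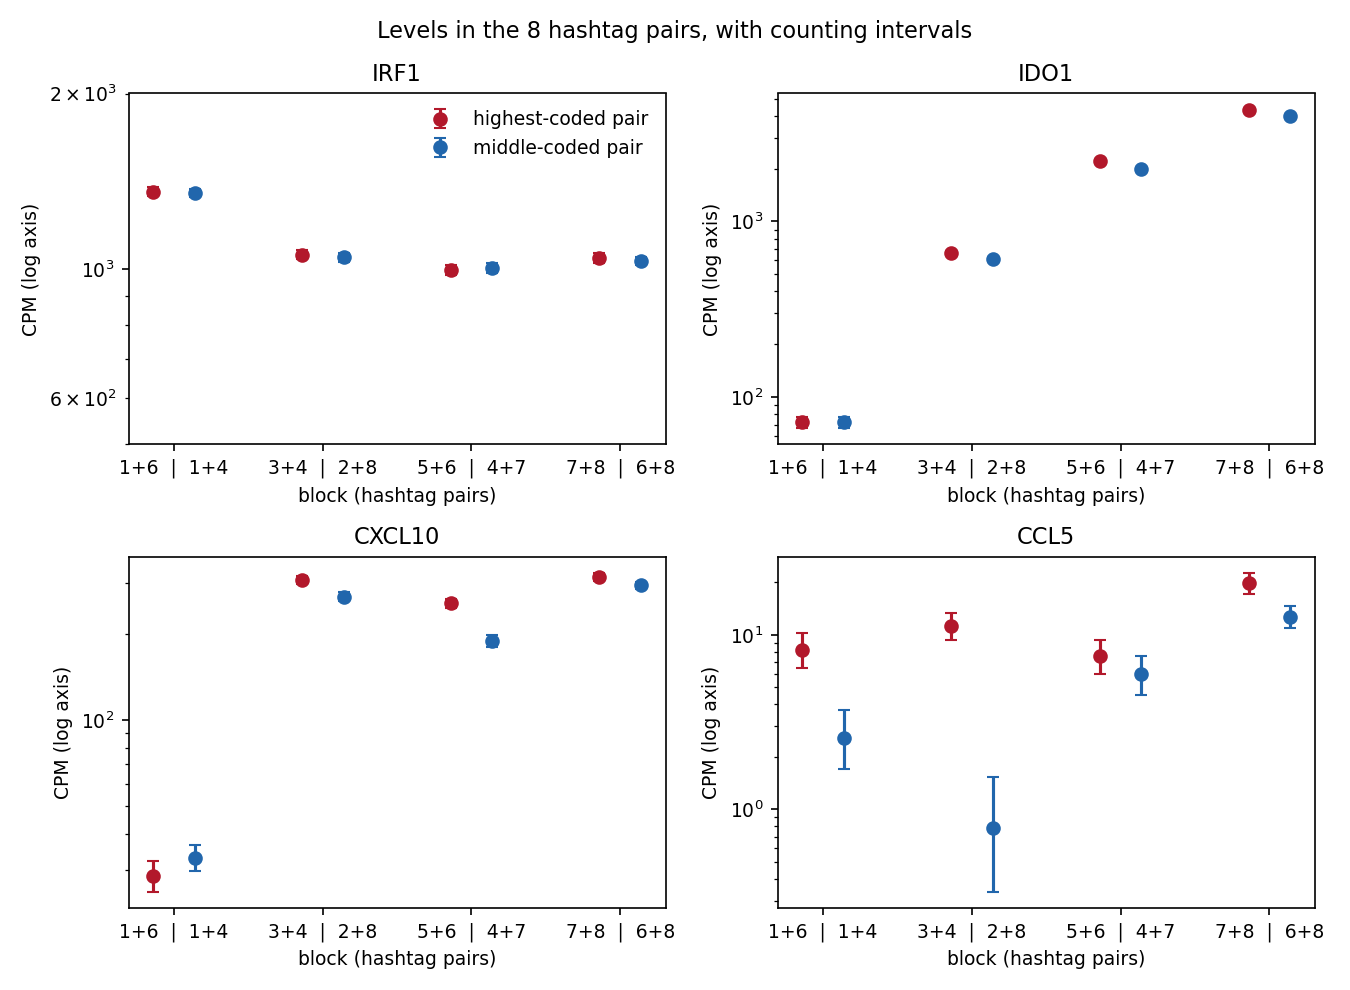
CPM (log axis) of IRF1, IDO1, CXCL10 and CCL5 in the 8 hashtag pairs, highest-coded in red left of its matched middle-coded pair in blue. Bars are exact 95% Poisson intervals, often smaller than the point; IRF1 lies within 0.991 to 1.01 of its match in every block, while CCL5 is higher in the highest-coded pair of all 4.

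Few genes differed. With edgeR's quasi-likelihood test and Benjamini-Hochberg adjustment, 3 genes passed an adjusted p of 0.05, which is 0.0234% of those tested, 3 higher and 0 lower in the highest-coded pairs. The calls were 9 higher and 6 lower without block 1, 3 higher and 6 lower without block 4, and 9 higher and 4 lower with no filter on low counts. At an unadjusted p under 0.05, 592 genes (4.61%) passed the same edgeR test. The median log2 fold change over all genes was 0.0025. Of 2937 genes with a mean of at least 50 CPM in either arm, 14 moved by more than 1.1-fold in the fit and 0 by more than 1.2-fold. CCL5 lay below that level and was not among them.

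**Figure D2:**
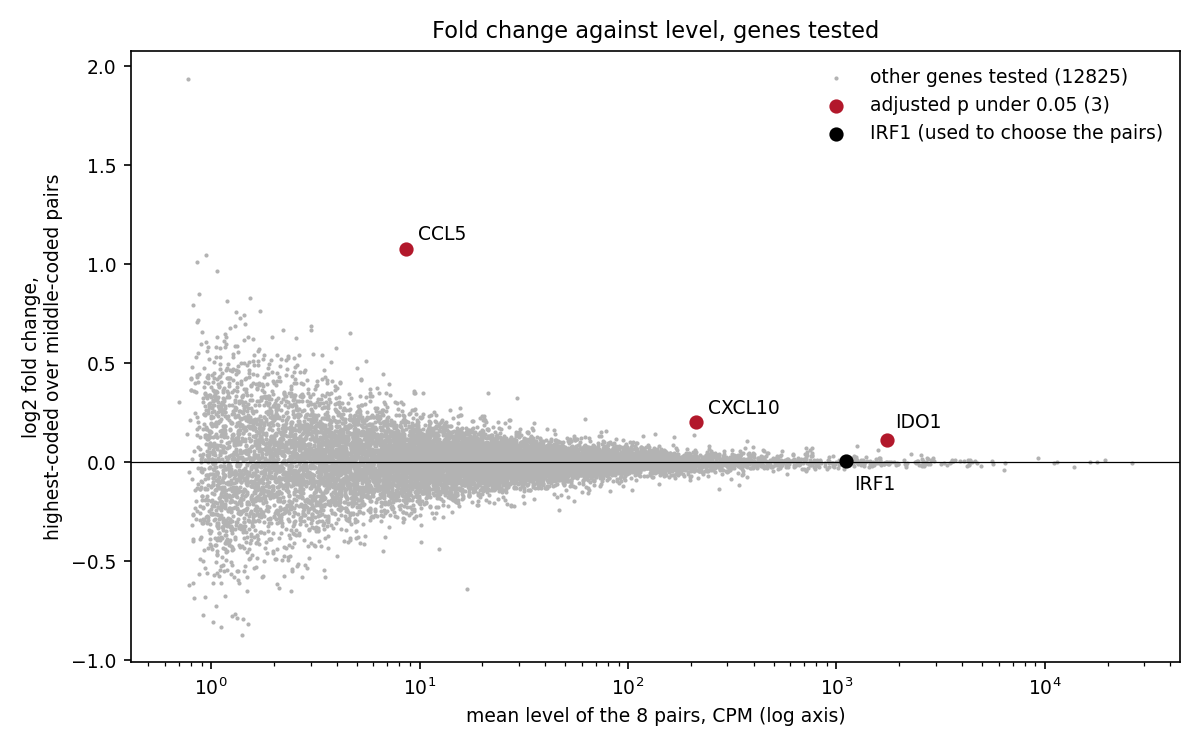
Log2 fold change of the highest-coded over the middle-coded pairs against mean level in CPM (log axis) for the 12828 genes tested. The 3 genes past an adjusted p of 0.05, in red, all lie above 0, at 1.08 for CCL5, 0.20 for CXCL10 and 0.11 for IDO1, and IRF1, in black, lies at 0.0094.

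IDO1, the enzyme that opens the kynurenine pathway, had 72.0, 662, 2199 and 4298 CPM in the highest-coded pairs, against 72.3, 615, 1995 and 3995 CPM in the middle-coded pairs. It was higher in 3 of 4 blocks and level in block 1, and because the blocks differed widely the arms overlapped. The matched ratios were 0.996 (exact 95% interval 0.896 to 1.11), 1.08 (1.04 to 1.11), 1.102 (1.08 to 1.12) and 1.08 (1.06 to 1.09), intervals that cover counting error only. The fitted log2 fold change was 0.11 (SE 0.019, adjusted p = 0.0049, edgeR), a 1.08-fold rise. The share of thinned cells with an IDO1 UMI was 44.1, 87.1, 98.4 and 100% in the highest-coded pairs and 46.1, 84.0, 98.7 and 100% in the middle-coded pairs, beside 16.8 to 22.4% in the IRF1-low pairs. Unthinned, the shares were 73.4, 94.99, 99.1 and 100% against 69.6, 93.9, 99.02 and 99.8%, with 45.6 to 55.2% in the IRF1-low pairs.

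The lower pairs of each block put this difference in place. IDO1 stood at 59.9, 550, 1574 and 3084 CPM in the lowest-coded responding pairs. The middle-coded pairs exceeded these by 1.21-fold, 1.12-fold, 1.27-fold and 1.295-fold, and the highest-coded pairs exceeded the middle-coded ones by the ratios above. Both steps share the middle-coded pairs, so they are not independent of each other. IRF1 itself was 1.02-fold, 1.03-fold, 1.19-fold and 1.28-fold higher in the middle-coded than in the lowest-coded pairs. IDO1 in the IRF1-low pairs was 36.5, 26.6, 25.8 and 27.1 CPM.

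**Figure D3:**
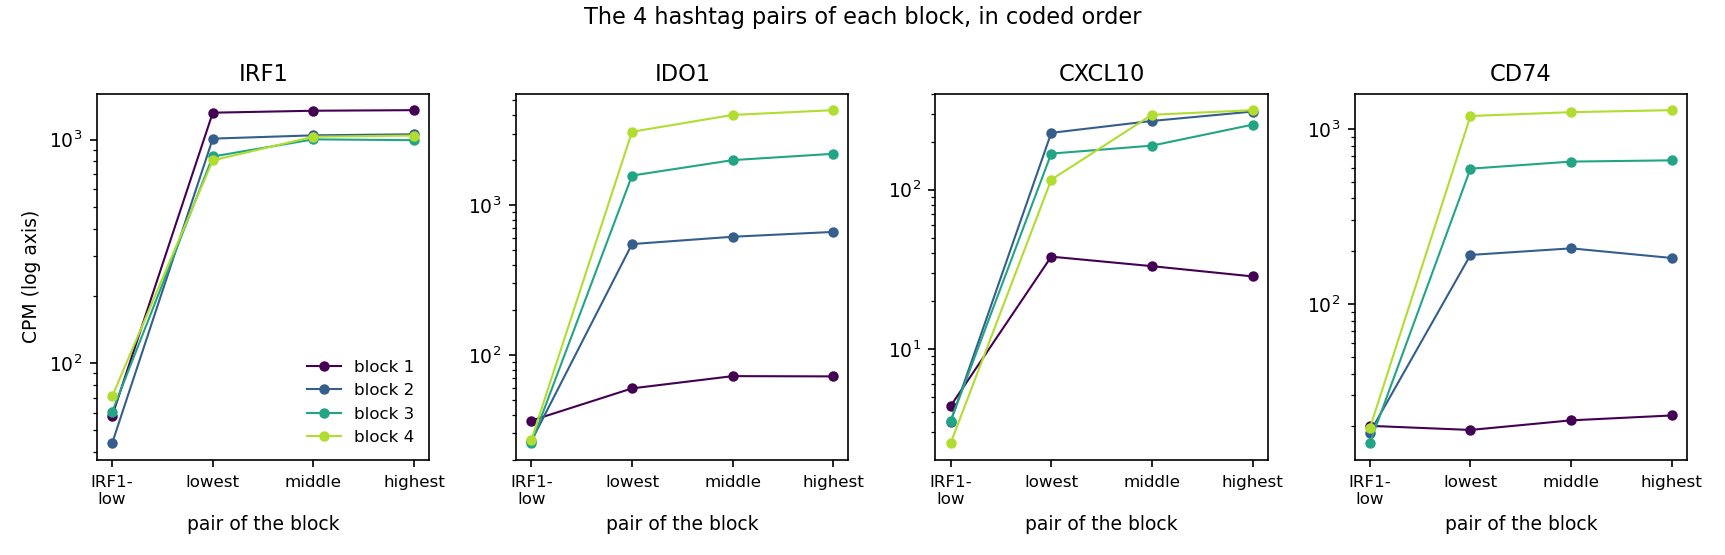
CPM (log axis) of IRF1, IDO1, CXCL10 and CD74 in the 4 hashtag pairs of each block, from the IRF1-low pair through the lowest- and middle-coded to the highest-coded pair, 1 line per block. IRF1 is flat from the middle- to the highest-coded pair in each block, and IDO1 in block 4 goes on through 3084, 3995 and 4298 CPM.

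The cells were also split by their own IRF1. In each block the cells with at least 10000 UMIs of both pairs were cut into 3 parts by thinned IRF1 UMIs, of unequal size, which gives 12 groups. IDO1 was higher in the highest-coded cells in 7 of the 12, with ratios from 0.898 to 1.34, and CXCL10 in 5 of the 12, with ratios from 0.746 to 1.78. The cells were also matched 1 to 1 on thinned IRF1 UMIs, with 267, 286, 259 and 331 cells per pair in the 4 blocks. The IDO1 log2 fold change was then 0.089 (SE 0.028, adjusted p = 0.97, edgeR).

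CXCL10, a ligand of the T-cell receptor CXCR3, had 28.5, 309, 255 and 315 CPM in the highest-coded pairs, against 33.1, 269, 189 and 295 CPM in the middle-coded pairs. It was higher in blocks 2, 3 and 4 and lower in block 1, most apart in block 3. The matched ratios were 0.862 (0.732 to 1.02), 1.15 (1.09 to 1.204), 1.35 (1.28 to 1.44) and 1.07 (1.02 to 1.12). The fitted log2 fold change was 0.20 (SE 0.040, adjusted p = 0.029, edgeR), while the plain mean of the 4 matched log2 ratios was 0.13 with an SD of 0.27. Without block 3 the edgeR log2 fold change was 0.11 and the adjusted p 0.89, and with cells matched on IRF1 they were 0.31 and 0.0496.

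The share of cells with a CXCL10 UMI differed between the arms by less than its spread over the blocks. Thinned, it was 10.8, 40.2, 36.5 and 44.9% in the highest-coded pairs and 10.0, 39.5, 34.9 and 48.4% in the middle-coded pairs, against 1.59 to 4.36% in the IRF1-low pairs. Unthinned it was 17.1, 52.8, 47.4 and 58.1% against 18.8, 50.6, 46.6 and 59.4%, and 7.78 to 11.2% in the IRF1-low pairs. The mean difference of the thinned shares over the blocks was -0.074 percentage points (SD 2.27). Cells with a CXCL10 UMI carried 16.1 such UMIs on average in the highest-coded arm and 14.2 in the middle-coded arm. The 5 cells richest in CXCL10 held 41.2, 22.7, 24.9 and 17.5% of its UMIs in the highest-coded pairs. In the middle-coded pairs they held 43.2, 15.5, 23.5 and 12.3%. The share was thus larger in the highest-coded pair in blocks 2, 3 and 4, where CXCL10 was higher. No fit left these cells out, so their part in the difference was not tested.

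The other CXCR3 ligands had positive fitted differences but did not pass. CXCL9 had 3.44, 22.4, 37.2 and 68.4 CPM in the highest-coded pairs, against 5.99, 16.02, 32.3 and 50.2 CPM in the middle-coded pairs (log2 fold change 0.33, SE 0.075, adjusted p = 0.15, edgeR). It passed in 3 of 17 alternatives: without block 1, with no filter on low counts and with the stricter cell filter. CXCL11 had 5.88, 81.4, 152 and 211 CPM, against 6.17, 71.6, 151 and 193 CPM (log2 fold change 0.097, SE 0.039, adjusted p = 0.95, edgeR). Like CXCL10, both were lower in the highest-coded pair in block 1 and higher in the other 3. Among the 3 ligands, 1 was called higher and 0 lower, where 0.0234% of all genes tested were called. The list's median log2 fold change was 0.20, which is the value of CXCL10 itself, beside 0.0025 over all genes.

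CCL5, a chemokine that recruits T cells, had 8.21, 11.2, 7.56 and 19.8 CPM in the highest-coded pairs, against 2.58, 0.781, 5.94 and 12.7 CPM in the middle-coded pairs. It was higher in each of the 4 blocks, although the arms overlapped, since 6+8 stood above 3 of the highest-coded pairs. The log2 fold change was 1.08 (SE 0.18, adjusted p = 0.0048, edgeR). The matched ratios were 3.18 (2.04 to 5.11), 14.3 (7.05 to 33.9), 1.27 (0.902 to 1.803) and 1.56 (1.27 to 1.91).

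The CCL5 transcripts sat in few cells. A CCL5 UMI was found in 9, 14, 7 and 21 cells of the highest-coded pairs and in 7, 5, 17 and 24 cells of the middle-coded pairs, which is 51 of 1362 cells (3.74%) against 53 of 1472 cells (3.601%). Thinned, the shares were 2.37, 2.96, 1.90 and 4.64% against 1.11, 0.926, 2.99 and 3.52%, and 0.317 to 2.71% in the IRF1-low pairs, and 4 of these 8 shares lie inside the range of the IRF1-low pairs. The single richest cell held 40 of 74, 32 of 127, 20 of 80 and 98 of 214 CCL5 UMIs in the highest-coded pairs, and 11 of 28, 4 of 8, 13 of 62 and 76 of 183 in the middle-coded pairs. Without that cell in each of the 8 pairs, the log2 fold change was 1.00 (SE 0.21, adjusted p = 0.066, edgeR).

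Cells rich in the antiviral genes RSAD2, HERC5 and OASL carried most of the CCL5. These cells, with at least 10 UMIs of the 3 genes together, made up 78 of the highest-coded cells (5.73%) and 88 of the middle-coded cells (5.98%). They held 81.4% of CCL5 UMIs in the highest-coded arm and 81.1% in the middle-coded arm, but unevenly over the pairs. By pair they held 69 of 74, 99 of 127, 79 of 80 and 156 of 214 CCL5 UMIs in the highest-coded arm, against 5 of 28, 4 of 8, 58 of 62 and 161 of 183 in the middle-coded arm. The share was lowest in the middle-coded pairs 1+4 and 2+8. Without the antiviral-rich cells the CCL5 log2 fold change was 1.01 (SE 0.35, adjusted p = 0.89, edgeR). By the counts above, the blocks then no longer went the same way. Outside these cells the highest-coded pair held fewer CCL5 UMIs than the middle-coded pair in blocks 1 and 3. In blocks 2 and 4 the highest-coded pair held more. The lowest-coded pairs, with 9.48, 4.599, 4.62 and 25.2 CPM of CCL5, lay above the middle-coded pair in 3 blocks and below it in block 3. The IRF1-low pairs had 3.44, 3.60, 3.89 and 4.13 CPM of CCL5. They lay above the middle-coded pairs 1+4 and 2+8, where the matched ratios were largest, and below the middle-coded pairs 4+7 and 6+8.

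**Figure D4:**
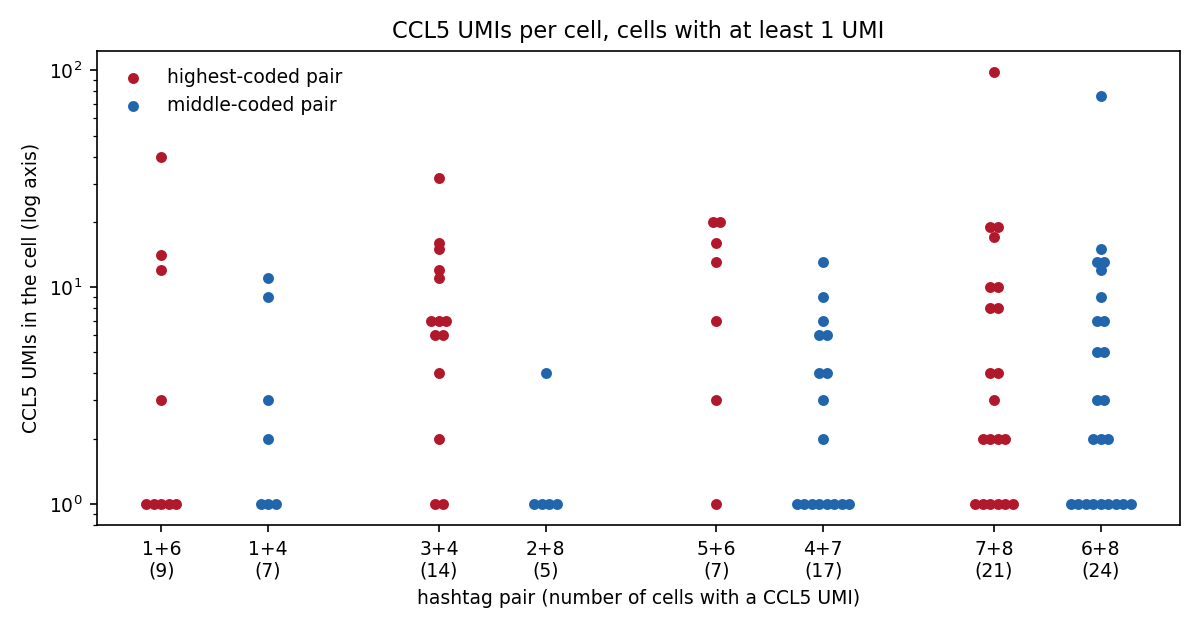
CCL5 UMIs (log axis) in each cell with at least 1, by hashtag pair, highest-coded in red left of its matched middle-coded pair in blue, with the number of such cells under each pair. In pair 7+8 a single cell holds 98 of 214 UMIs and in pair 1+6 a single cell holds 40 of 74.

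Receptors, kinases and transcription factors showed no called difference. Of 7 receptor and JAK kinase genes tested, 0 passed in either direction and the median log2 fold change was 0.0023. JAK1, a kinase of the interferon receptors, had 74.0, 72.5, 67.8 and 76.0 CPM in the highest-coded pairs, against 70.4, 72.4, 67.9 and 77.4 CPM in the middle-coded pairs. Of 14 transcription factors, IRF1 among them, 0 passed and 14 had a log2 fold change above 0, with a median of 0.037. Over all genes tested, 51.5% lay above 0.

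No antigen presentation gene was called. Of 16 genes of the MHC class II list, 0 passed, 7 were above 0 and the median was -0.0052. CIITA, the transactivator of that list, had 13.1, 28.7, 26.2 and 26.7 CPM in the highest-coded pairs and 14.1, 26.8, 25.5 and 28.9 CPM in the middle-coded pairs. CD74, the invariant chain, had 23.1, 183, 660.5 and 1278 CPM against 21.6, 208, 650 and 1244 CPM (log2 fold change -0.011, SE 0.028). HLA-DRA, a class II chain, had 3.33, 17.96, 90.8 and 254 CPM against 5.06, 23.5, 93.5 and 250 CPM (log2 fold change -0.050, SE 0.048). The blocks differed far more than the arms, which overlapped for each of these genes.

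Of 18 MHC class I genes 0 passed, 11 were above 0 and the median was 0.0093. B2M, the class I light chain, had 2334, 2921, 3817 and 5763 CPM in the highest-coded pairs and 2347, 2924, 3781 and 5626 CPM in the middle-coded pairs. The proteasome activator PSME2 and NLRC5, the class I transactivator, had log2 fold changes of -0.0061 and -0.064, and IFI30, the lysosomal thiol reductase, of -0.0066. Of 5 guanylate-binding proteins tested, which act against intracellular pathogens, 0 passed and 5 were above 0, with a median of 0.015. GBP1 had 288, 649, 552 and 540.1 CPM against 283, 645, 540.4 and 541 CPM, and GBP4 a log2 fold change of 0.015.

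Of 11 genes of the tryptophan and checkpoint list, IDO1 alone passed and 0 were called lower, with a median of 0.0083. Over all genes tested 0.0234% passed. WARS, the cytosolic tryptophanyl-tRNA synthetase, had 153, 600.2, 1070.1 and 1517 CPM against 147, 614, 1080 and 1483 CPM. CD274, which encodes PD-L1, had 27.4, 37.2, 31.7 and 29.2 CPM in the highest-coded pairs and 22.6, 42.6, 31.8 and 31.0 CPM in the middle-coded pairs. KYNU, a later enzyme of the kynurenine pathway named after its values were seen, had 4.33, 2.55, 2.74 and 1.76 CPM against 4.604, 6.45, 3.54 and 2.296 CPM, lower in 4 of 4 blocks (log2 fold change -0.58, SE 0.18, adjusted p = 0.69, edgeR).

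Of 10 negative regulators 0 passed and the median was 0.021. SOCS1, a JAK inhibitor, had 24.0, 56.4, 77.1 and 83.6 CPM in the highest-coded pairs and 27.3, 51.4, 68.9 and 78.7 CPM in the middle-coded pairs (log2 fold change 0.089, SE 0.048). The phosphatases PTPN1 and PTPN2 had log2 fold changes of -0.036 and -0.023. Of 13 other chemokines and cytokines tested, CCL5 alone was called higher and 0 lower, where 0.0234% of all genes were called. IL32 and IL18 had log2 fold changes of 0.066 and -0.020.

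Of 42 antiviral genes 0 passed, 37 were above 0, and the median log2 fold change was 0.047. At an unadjusted p under 0.05 in the edgeR test 11 of 42 were higher, where 2.6% of all genes were, and 11 of 42 were higher in all 4 blocks, where 6.07% of all genes were. In all 4 blocks 1 of 42 was lower, where 5.87% of all genes were. ISG15, a ubiquitin-like modifier, had 883, 1230, 1316 and 1747 CPM in the highest-coded pairs, against 870, 1120, 1268 and 1632 CPM in the middle-coded pairs (log2 fold change 0.081, SE 0.019, adjusted p = 0.17, edgeR). It passed in 2 of 17 alternatives, without block 1 and with the stricter cell filter. IFITM3, which blocks viral entry, had a log2 fold change of 0.047, higher in 4 of 4 blocks. MX1 and RSAD2, named after their values were seen, had log2 fold changes of 0.14 and 0.35, each higher in 3 of 4 blocks. Without the cells rich in RSAD2, HERC5 and OASL, 36 of 42 were above 0 and the median was 0.054. The summed list stood at 5138, 7287, 8550 and 11882 CPM against 4842, 7184, 8502 and 11195 CPM, higher in 4 of 4 blocks (exact paired sign-flip permutation test, two-sided p = 0.125, the smallest that 4 blocks allow; adjusted over 14 measures 0.58).

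**Figure D5:**
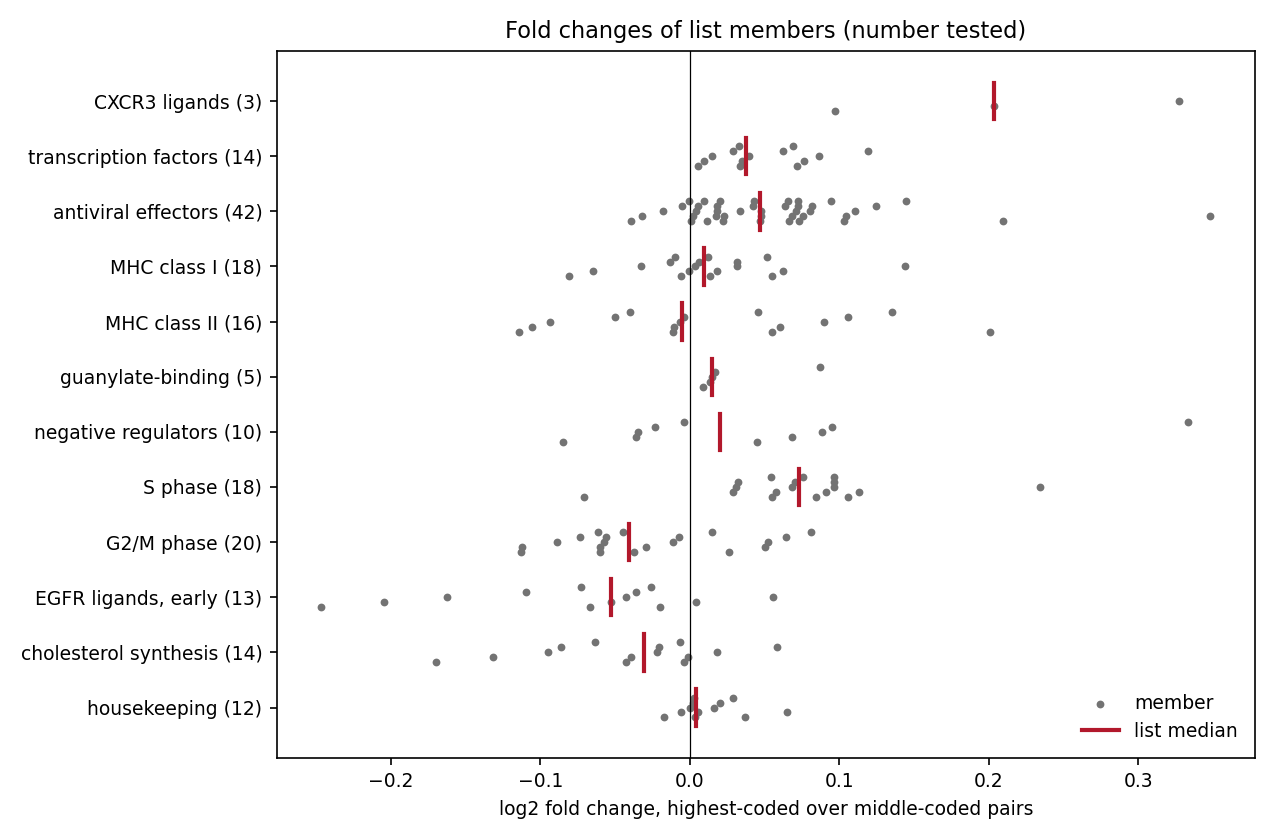
Log2 fold changes of the highest-coded over the middle-coded pairs for the tested members of 12 gene lists (points, number tested in brackets) with each list's median (red bar). The medians run from -0.053 for EGFR ligands and early genes to 0.20 for the CXCR3 ligands, and no other list drawn has a median beyond 0.1 in either direction.

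No cell cycle gene was called. Of 18 S phase genes 17 were above 0, with a median of 0.073, and of 20 G2/M genes 6 were above 0, with a median of -0.041. Over all genes tested 51.5% were above 0. At an unadjusted p under 0.05 in the edgeR test, 5 S phase genes were higher and 0 lower, where 2.6% of all genes were higher. Of the G2/M genes 1 was higher and 2 were lower at that level. TYMS, which makes thymidylate, had a log2 fold change of 0.031, and the topoisomerase TOP2A of -0.057. UBE2C, a G2/M gene named after its values were seen, had -0.11 (adjusted p = 0.82, edgeR) and was higher in 2 of 4 blocks. It passed as lower in 2 of 17 alternatives, without block 1 and without block 4. The summed S phase level was 1391, 1540, 1735 and 1512 CPM in the highest-coded pairs and 1214, 1500.4, 1666 and 1540 CPM in the middle-coded pairs, higher in 3 of 4 blocks. The summed G2/M level was 2810, 2175, 3048 and 3651 CPM against 2666, 2313, 3514 and 3454 CPM, higher in 2 of 4. Their part in the differences above was not tested.

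Total gene UMIs ran from 9015397 to 11356850 per highest-coded pair and from 10240074 to 14375040 per middle-coded pair. Median UMIs per cell ran from 27860 to 31944 and from 27824.5 to 32360, and the median mitochondrial share from 10.98 to 12.4% and from 10.9 to 12.3%. Median UMIs per cell were higher in the highest-coded pair in 1 of 4 blocks. Median genes per cell were 5408, 5315, 5563 and 5412 in the highest-coded pairs. In the middle-coded pairs they were 5417.5, 5415, 5590 and 5430, so the highest-coded pair was lower in all 4 blocks. Over 14 such measures and list totals, the exact sign-flip permutation test over 4 blocks gave two-sided p from 0.125, the smallest possible, to 0.875. Of 8 epithelial markers, KRT18, KRT8, KRT7, KRT19 and EPCAM were abundant, while PAX8 had 297 UMIs over the 8 pairs, MUC16 13 and WT1 6. Of 27 markers of T and NK, B, myeloid, endothelial and fibroblast cells, 13 were at 0, among them CD3E, MS4A1, TYROBP, CDH5 and COL1A2, and CD68 and CD14 alone entered the test. Cells with at least 5 UMIs of SERPINB3, SERPINB4, ZFHX4, PCSK1N and TFPI2 together made up 1.24 to 2.11% of the highest-coded pairs and 1.303 to 2.73% of the middle-coded pairs.

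The 3 calls rest on a small design. edgeR estimated each gene's spread with 3 residual degrees of freedom and a prior worth 39.5, so the standard errors lean on the typical gene, and the exact sign-flip permutation test over the 4 matched ratios gave two-sided p = 0.125 for CCL5, 0.25 for IDO1 and 0.50 for CXCL10, where 0.125 is the smallest possible. With DESeq2 1 gene passed, IDO1 (adjusted p = 0.048), and CCL5 and CXCL10 each passed in 11 of 17 alternatives, as did IDO1.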

How the data were processed

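The authors deposited raw UMI counts per gene or hashtag and barcode. Cell Ranger is given as version 5.0.1 per the file headers and as 2.1.1, with build GRCh38, per the submitters' processing notes, and this was not settled. Barcodes needed 500 genes and no more than 20% mitochondrial UMIs, which left 7201 of 7804. A cell's pair was its 2 highest hashtags, kept if the second held at least 5 times the third plus 1. Doublets within a pair cannot be seen, no other doublet caller was run, and free RNA was not subtracted.

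UMIs were summed per pair, so each pair was 1 unit and cells were not replicates. Genes passing filterByExpr were fitted with edgeR 4.0.16 (R 4.3.3, TMM scaling, quasi-likelihood test, block as covariate) and adjusted by Benjamini-Hochberg over all 12828, at 0.05. The block is the matching given with the comparison and no source ties it to a batch. The fit was tested on simulated data with the same spread for every gene and no difference between blocks. That test could not show how calls fare for genes that vary over blocks or sit in few cells. Intervals are exact at 95% and cover counting error only. Shares used cells thinned to 10000 UMIs. Alternatives covered DESeq2 1.42.0, scaling, filters, cell and hashtag rules, thinning, matching on IRF1, and leaving out blocks or cells.

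The members, the 24 pathway lists and the 7 marker lists were chosen with earlier results of these data known. Genes were named by rule: IRF1, the called genes with the largest changes of 1 sign in all 4 blocks at a mean of at least 10 CPM, the 2 most abundant members of each of the first 12 lists and the 1 of each later list, and 18 fixed interferon-response genes, 1 of which is counted in its list but not reported here. Other genes are said to be named after their values were seen or belong to a marker list. The remaining steps ran in Python 3.11.15 (scipy 1.17.1).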

Additional observations from a re-analysis of the deposited data

Results flagged for a closer look

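Of 44 genes named by rule, 3 had a matched block far from the other 3 by Dixon's test at 95%, a test that chance alone passes in about 1 of 20 groups. IL32, a cytokine, had a log2 ratio of highest- over middle-coded pairs of -0.43 in block 1, while it lay above 0 in the other 3. CASP8, an initiator caspase, had -0.074 in block 2, where the other blocks lay above 0. GAPDH, a glycolytic enzyme, had -0.013 in block 4, where the other blocks lay above 0. IDO1 was also present in the hashtag pairs outside the comparison. It stood at 24.1 CPM in the 243 cells of pair 1+5 (exact Poisson interval 20.7 to 27.8, IRF1 53.6 CPM) and at 3292 CPM in the 166 cells of pair 2+5 (3243 to 3340, IRF1 894 CPM), both above the 3 UMIs that mark the limit of a count of 0. The IRF1-low pairs had 36.5, 26.6, 25.8 and 27.1 CPM, the last 3 inside the interval of pair 1+5, and in the first of them a single cell held 124 of 350 IDO1 UMIs. The part of free RNA in these values was not tested.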

How the results depend on the processing

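The number of genes past the threshold was 3, and it was 3 with RLE scaling or totals alone, 4 with a minimum of 100 UMIs or with thinned cells, and 2 with the stricter pair rule, with cells matched on IRF1 (CXCL10, and CXCL8 lower) or without the cell richest in CCL5 in each pair. It was 1 with DESeq2 (34 genes at an unadjusted p under 0.05 there), 13 with no filter on low counts, 5 with the stricter cell filter of 2000 genes and 15% mitochondrial UMIs, where CXCL9 and ISG15 joined the 3, and 5 without the cells marked by SERPINB3 and its companions, where KRT81 and S100A9 joined the 3. Leaving out 1 block gave 1 to 15 genes: 15 without block 1, 1 without block 2 (ID3, with none of the 3 kept), 1 without block 3 (CCL5) and 9 without block 4 (CCL5 and CXCL10 among them). Without the block as a covariate it was 0 in edgeR, with 52 genes at an unadjusted p under 0.05. Without the antiviral-rich cells it was 0 in edgeR, with 590 genes at an unadjusted p under 0.05. That alternative and the one without the richest CCL5 cell were chosen after seeing the data.

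IDO1 ran from 0.089 to 0.12 on the log2 scale over 17 alternatives, CXCL10 from 0.11 to 0.31 and CCL5 from 0.73 to 1.54, all above 0, each past the threshold in 11, with adjusted p up to 1. IDO1 lost its call without the block term, without block 2, 3 or 4, with IRF1-matched cells and without antiviral-rich cells. CXCL10 lost it with DESeq2, without the block term, without block 2 or 3, with the stricter pair rule and without antiviral-rich cells. CCL5 lost it with DESeq2, without the block term, without block 2 (adjusted p 0.094), with IRF1-matched cells, without antiviral-rich cells and without its richest cell. Of 68 genes recomputed, 0 reversed a called direction. Among values called in neither fit, 79 of 1070 changed sign. The shares of cells and summed lists moved by less than their SD over blocks. The cause of each lost call was not tested. CCL5 had only 8 UMIs in pair 2+8, beside 127 in its matched pair 3+4, so its ratio there rests on a small count. Total gene UMIs were 10240074 in pair 2+8 and 11356850 in pair 3+4.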

Other observations

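No member of the other lists passed the threshold, and they are described by their counts. Of 13 EGFR ligands and immediate early genes, 2 lay above 0 with a median log2 fold change of -0.053, and of 14 cholesterol synthesis genes 2 did, with a median of -0.031. EREG, an EGFR ligand named after its values were seen, had 235, 106, 98.96 and 100.3 CPM in the highest-coded pairs, against 252, 118, 98.4 and 114 CPM in the middle-coded pairs (adjusted p = 0.68, edgeR). SQLE, an enzyme of sterol synthesis, had a log2 fold change of -0.039, and FOSL1 of 0.0042. Of 9 growth arrest genes 2 lay above 0 (median -0.021), with CCND1 at -0.014.

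Other lists lay near or above 0. In the cell death list 14 of 17 were above 0 (median 0.034), in the NF-kB and adhesion list 9 of 13 (0.052), in the complement and acute phase list 10 of 14 (0.021), and among YAP targets 7 of 10 (0.031). The mesenchymal list had 5 of 6 above 0 (0.058), the stress list 9 of 14 (0.019), hypoxia and glycolysis 10 of 14 (0.0081), keratins 8 of 12 (0.0096) and housekeeping genes 10 of 12 (0.0044). At an unadjusted p under 0.05 in the edgeR test, 4 of 13 NF-kB and adhesion genes and 2 of 6 mesenchymal genes were higher and 0 lower. Over all genes tested 2.6% were higher at that level. In all 4 blocks, 0 of the NF-kB and adhesion genes were higher and 1 was lower. Of the mesenchymal genes 2 were higher and 0 lower in all 4 blocks. Over all genes tested these shares were 6.07% higher and 5.87% lower. VIM, an intermediate filament, had a log2 fold change of 0.039 and was higher in 4 of 4 blocks, SOD2, a mitochondrial dismutase, had 0.078, CASP4 0.034, ICAM1 -0.013, NNMT 0.034, KRT18 0.019 and HSPA5 -0.010. CCN2, a matricellular protein, had 420, 37.8, 10.7 and 9.53 CPM in the highest-coded pairs and 392, 36.2, 8.72 and 14.8 CPM in the middle-coded pairs.

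The genes next in order of p, named after their values were seen, were of mixed kinds. Among them were the histone genes HIST1H4C, HIST1H1A and HIST1H1C and the metallothionein genes MT1E and MT2A. None of these was called in the main fit, and each had a log2 fold change above 0 in all 17 alternatives. They passed the threshold in 1, 1, 0, 2 and 0 of the alternatives, in that order. STC2, a secreted glycoprotein, had 47.9, 71.5, 32.4 and 18.4 CPM in the highest-coded pairs, against 57.0, 91.8, 37.0 and 18.1 CPM in the middle-coded pairs (log2 fold change -0.24, adjusted p = 0.15, edgeR). DDIT3, a stress-induced transcription factor, had 8.21, 11.4, 9.26 and 12.9 CPM against 16.1, 13.5, 13.99 and 13.7 CPM (log2 fold change -0.44, adjusted p = 0.17, edgeR), lower in 4 of 4 blocks. The replication-dependent histone HIST1H4C had 370, 310, 481 and 380 CPM against 329, 297, 429 and 371 CPM (log2 fold change 0.11, adjusted p = 0.15, edgeR), higher in 4 of 4 blocks. CXCL8, a neutrophil chemokine, had 34.2, 14.4, 1.89 and 2.22 CPM against 37.6, 42.3, 0.958 and 0.835 CPM, lower in 2 of 4 blocks. A single cell held 98 of 164 CXCL8 UMIs in pair 3+4 and 254 of 433 in pair 2+8.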
